A study of Homo sapiens with 6 samples.

Results

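The MYC, MAX and MXD network was followed here as a list of 10 named genes: MYC, MYCN, MAX, MXD1, MXD3, MXD4, MXI1, MNT, MLX and MLXIP. Members were chosen by symbol, and 9 of the 10 were found among the 19437 genes of the expression table, each as a single entry. All 9 passed the expression filter (3 or more of the 6 libraries at 1 CPM or above), which left 13640 genes for testing. MYCN was not in the table analysed and was not analysed here. CPM scales read counts to the library's total, and the authors then applied TMM factors between libraries.

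The labels give the cells as SCC9, an established human line from an oral squamous cell carcinoma. One group received an adenovirus that makes green fluorescent protein (GFP, the control) and the other an adenovirus that makes TEADi, a protein that inhibits TEAD. Both groups were grown in serum and hydrocortisone, infected at a multiplicity of 25 and harvested 48 h later, so viral transduction was common to both. Each group had 3 libraries, A, B and C. The labels say nothing of separate cultures beyond transduction in triplicate, so the spread behind each p-value is that between the libraries and could be technical.

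MYC is a transcription factor that binds DNA only as a pair with MAX, at the E-box CACGTG, and raises transcription of genes for ribosome production, metabolism and cell division. MXD1, MXD3, MXD4, MXI1 and MNT compete for MAX, bind the same E-box and recruit the SIN3 co-repressors. MLX pairs with MLXIP (MondoA), a factor that responds to glucose metabolites, and can also pair with MXD1, MXD4 and MNT. In many epithelia MYC is high in dividing cells and MXD1 in differentiating ones.

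MYC fell in TEADi cells while 4 of the 5 antagonists, MXD4, MXD1, MNT and MXI1, rose. MYC was 2.32-fold lower, MXD4 1.92-fold higher, MXD1 1.78-fold, MNT 1.45-fold and MXI1 1.23-fold higher. MAX, the shared partner, MXD3, MLX and MLXIP were not called. Thus 4 of 9 tested members were called higher and 1 lower, where 25.5% of all tested genes were called higher and 35.3% lower (60.8% in either direction; limma with Benjamini-Hochberg adjustment, threshold 0.05). The groups did not overlap in these 5 members, as in 65.8% of all tested genes. The 5 of 9 members called thus lie near the background share, and the counts describe the members without setting the list apart.

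The promoters that hold an E-box or the core letters of a TEAD site are shown here because MYC, its antagonists and MLX factors bind the first and TEAD proteins the second. The RefSeq table (GRCh38.p14) gave 12 promoters for 9 of the 10 listed genes, all except MYC, for which none is printed. Each covers 250 bases before and 50 bases after a transcription start. E-boxes (CACGTG, which reads the same on both strands) and TEAD letters (GGAATG, or CATTCC on the other strand) are in capitals. Sequences run 5′ to 3′ on the gene's strand.
MXD4, chr4:2262060-2262359, minus strand: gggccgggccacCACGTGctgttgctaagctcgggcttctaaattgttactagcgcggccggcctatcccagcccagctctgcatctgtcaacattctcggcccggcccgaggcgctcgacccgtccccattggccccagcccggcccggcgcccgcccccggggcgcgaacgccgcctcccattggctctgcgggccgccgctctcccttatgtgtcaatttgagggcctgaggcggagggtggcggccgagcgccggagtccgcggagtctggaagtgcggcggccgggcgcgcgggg
MNT, chr17:2401011-2401310, minus strand: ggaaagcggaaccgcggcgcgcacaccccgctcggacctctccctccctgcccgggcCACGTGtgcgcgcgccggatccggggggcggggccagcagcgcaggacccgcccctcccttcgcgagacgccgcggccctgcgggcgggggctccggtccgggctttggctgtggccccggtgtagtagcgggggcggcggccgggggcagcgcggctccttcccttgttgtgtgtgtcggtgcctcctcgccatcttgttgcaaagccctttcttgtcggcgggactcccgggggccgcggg
MLX, chr17:42566850-42567149, plus strand: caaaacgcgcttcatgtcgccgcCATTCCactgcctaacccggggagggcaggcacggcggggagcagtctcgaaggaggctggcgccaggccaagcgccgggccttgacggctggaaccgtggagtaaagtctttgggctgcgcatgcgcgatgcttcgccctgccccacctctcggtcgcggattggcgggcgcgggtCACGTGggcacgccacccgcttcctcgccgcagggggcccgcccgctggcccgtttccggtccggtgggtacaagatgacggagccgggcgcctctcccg
MXI1, most upstream of its 3 starts, chr10:110207355-110207654, plus strand: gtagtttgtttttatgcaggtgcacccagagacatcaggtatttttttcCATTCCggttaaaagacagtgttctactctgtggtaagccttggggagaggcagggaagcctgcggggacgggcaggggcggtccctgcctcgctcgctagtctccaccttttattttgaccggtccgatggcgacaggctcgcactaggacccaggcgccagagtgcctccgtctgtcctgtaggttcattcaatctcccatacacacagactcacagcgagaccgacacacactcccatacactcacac

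An E-box lay in 3 of the 12 promoters, at position -238 of MXD4, -193 of MNT and -50 of MLX, counted from the start site to the first base of the match. It lay in 7.26% of all 35116 promoters of the same length. The TEAD letters lay in 2 of the 12, at -227 of MLX and -201 of MXI1, and in 14% of all promoters. With 12 promoters, several of them of the same gene, these shares do not set the members apart. Neither motif was found in the windows of MXD1, MXD3, MAX, MLXIP or MYCN, or in the other 2 MXI1 promoters. A match is a match of letters, not a measured site. Of the called members, MXD4 and MNT hold the E-box letters, MXI1 the TEAD letters in 1 window, and MXD1 neither.

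Some facts of all 6 libraries bear on the members. The scaled totals lay between 827124 and 915558 CPM, and, counted in units of the smallest value in a library, which stands nearest to depth, between 9589768 and 15380584. ANKRD1, a direct target of YAP and TEAD, stood at 76.9 to 85.0 CPM in GFP and 1.73 to 1.93 in TEADi. Epithelial markers were sparse: of 10 listed, squamous and general, 4 passed the filter (KRT8, KRT18, EPCAM and SFN). KRT5 measured 21.7 CPM in GFP library A, 17.2 in B and 0.414 in C, against at most 0.302 in TEADi. KRT14, CDH1 and TP63 measured 0.893 to 3.57 CPM in GFP libraries A and B and at most 0.276 in the other 4. KRT17 measured 4.29 and 3.26 CPM in GFP libraries A and B, 0.759 in C and at most 0.431 in TEADi. KRT6A did not split that way, at 1.01, 0.834 and 0.345 CPM in GFP and 0.173, 0.432 and 0.905 in TEADi. GFP libraries A and B thus stood apart in KRT5, KRT14, KRT17, CDH1 and TP63. The other 4 held these markers of the labelled cell type, and KRT6A, only below 1 CPM. Whether the cells are the labelled line, or a mix, was not tested. The 10 epithelial markers summed to 319 to 407 CPM in GFP and 181 to 192 in TEADi. The largest parts were KRT8 (188 to 228 and 96.9 to 106) and KRT18 (75.4 to 82.1 and 58.6 to 62.8), so the sum does not measure squamous markers alone. The 5 measured of 6 fibroblast markers came to 539 to 704 CPM in GFP and 1180 to 1248 in TEADi, and the difference lay mostly in DCN, at 50.5 to 60.8 and 654 to 693 CPM. LUM was also higher in TEADi (92.4 to 105 and 177 to 182), as was COL3A1 (24.2 to 33.0 and 34.2 to 40.4). COL1A1 was lower (302 to 429 and 237 to 275), and COL1A2 overlapped (59.9 to 85.0 and 72.2 to 74.4). The 2 measured of 5 leukocyte markers came to at most 0.476 CPM in GFP and 1.22 to 1.87 in TEADi, and the 2 measured of 4 endothelial markers to at most 0.357 in any library. The part of cell composition in the changes below was not tested. Bulk RNA cannot tell fewer cells of a type from less RNA per cell. Results for members are therefore also given for GFP library C alone against the 3 TEADi libraries, a comparison added after the data were seen. It takes the spread of the TEADi libraries for the single GFP library too. In it 3 of the 9 members were called higher and 1 lower, where 22.1% of all tested genes were called higher and 28.9% lower.

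MYC (hg19, chromosome 8, 128747680 to 128753674, plus strand) measured 31.2, 27.2 and 31.9 CPM in the GFP libraries (A, B, C in order, as for all genes below) against 11.99, 13.4 and 13.5 in the TEADi libraries. The highest TEADi library lay well under the lowest GFP library. The mean went from 30.1 ± 2.53 to 13.0 ± 0.843 CPM (SD, n = 3 per group here and below). The fitted log2 fold change, on the log2(CPM + 1) scale used for all fits, was -1.15 ± 0.10 (SE; limma, Benjamini-Hochberg adjusted p = 2.47e-08), with a 95% interval of -1.36 to -0.95. Of all tested genes 1.8% had a lower log2 fold change. The values of MYC were 139 to 524 times a library's smallest value. Without GFP libraries A and B, with GFP library C as the only control, the log2 fold change was -1.24.

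MAX (chromosome 14, 65472892 to 65569413, minus strand) is the partner that MYC and the MXD proteins share. It stood at 59.4, 50.7 and 48.1 CPM in GFP and 50.9, 46.8 and 49.5 in TEADi. The groups overlapped, and GFP library A was the highest of the 6. The log2 fold change was -0.10, with a 95% interval of -0.27 to 0.08 (limma, Benjamini-Hochberg adjusted p = 0.314). The interval includes changes in both directions, and the sign turned without GFP libraries A and B (0.025). MAX overlaps FNTB on the other strand (33.1 and 29.5 CPM in the groups), and whether reads were counted by strand is not given in the sources used here.

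**Figure D1:**
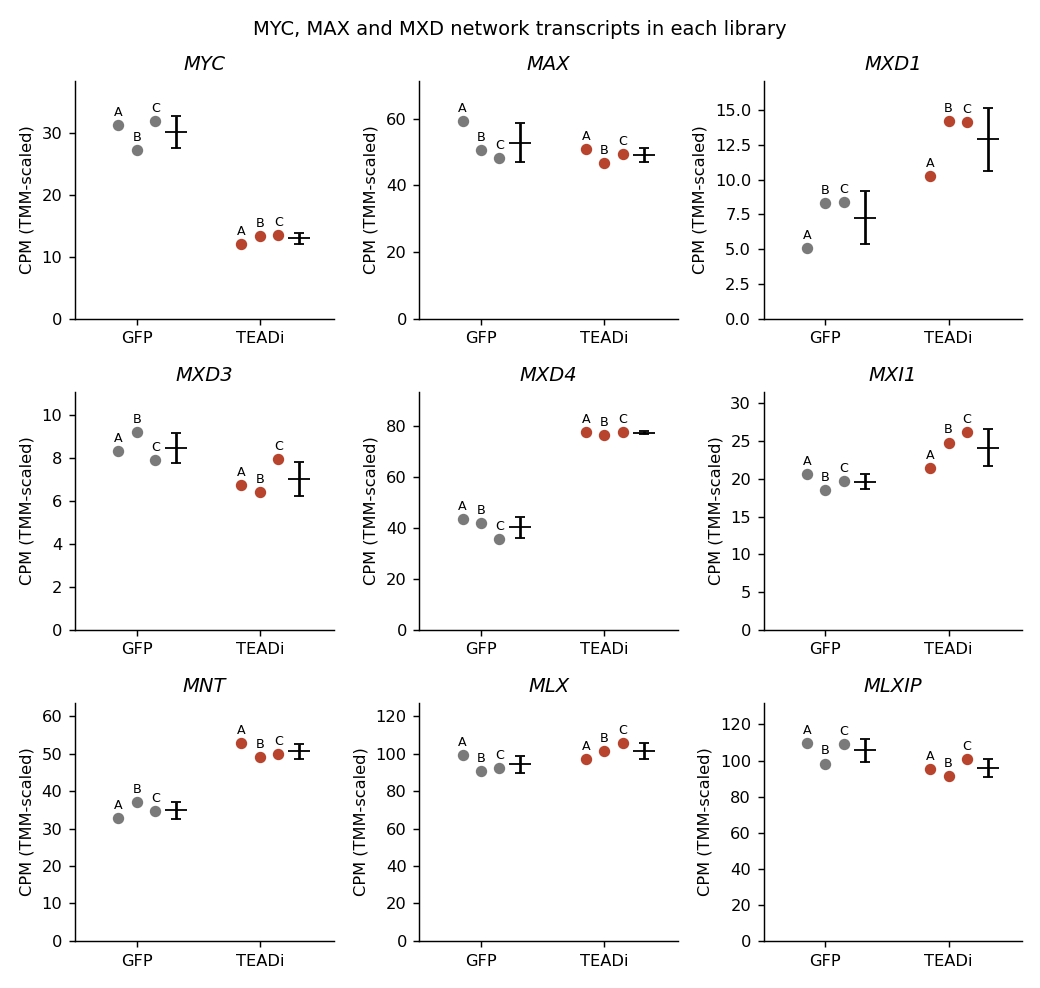
Expression of the 9 measured network genes in each library (points, letters name the library) in CPM scaled by the authors, with the group mean and SD (bar, n = 3). MYC is lower and MXD1, MXD4, MXI1 and MNT are higher in all 3 TEADi libraries than in any GFP library, while MAX, MXD3, MLX and MLXIP overlap between groups.

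MXD4 (chromosome 4, 2249159 to 2264021, minus strand), a MAX-binding repressor linked to cell cycle exit, had the largest rise of the antagonists. It measured 43.3, 41.8 and 35.6 CPM in GFP against 77.6, 76.5 and 77.6 in TEADi. The TEADi libraries were nearly alike, and all lay far above GFP. The mean rose from 40.2 ± 4.10 to 77.3 ± 0.634 CPM. In limma the log2 fold change was 0.93 with an SE of 0.08 (adjusted p = 2.86e-08, Benjamini-Hochberg). Without GFP libraries A and B it was 1.10. With all 6 libraries, 5.8% of all tested genes had a higher log2 fold change than MXD4. For MXD1 that share was 8.5%, for MNT 14.1% and for MXI1 24.2%.

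MXD1 (chromosome 2, 70124820 to 70170077, plus strand), the antagonist known for induction during differentiation, measured 5.06, 8.34 and 8.38 CPM in GFP against 10.3, 14.2 and 14.2 in TEADi. Library A was the lowest in both groups, and the groups did not overlap. The log2 fold change was 0.77 with an SE of 0.16 (adjusted p = 6.84e-04, limma, Benjamini-Hochberg), the widest standard error among the members, and 0.55 without GFP libraries A and B. MXD1 overlaps the more strongly expressed SNRNP27 on the same strand, which went the other way (43.6 ± 1.48 to 39.2 ± 1.30 CPM) and was not called.

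MNT (chromosome 17, 2287354 to 2304412, minus strand), the broadly expressed antagonist, measured 32.7, 37.1 and 34.7 CPM in GFP against 52.9, 49.2 and 49.8 in TEADi. Every TEADi library exceeded every GFP library by more than the range within a group. The log2 fold change was 0.53 with an SE of 0.08 (adjusted p = 1.49e-05, limma, Benjamini-Hochberg) and 0.53 without GFP libraries A and B.

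MXI1 (chromosome 10, 111967363 to 112047123, plus strand), also called MXD2, showed the smallest called rise, from 20.7, 18.6 and 19.7 CPM in GFP to 21.4, 24.8 and 26.2 in TEADi. TEADi library A lay just above GFP library A. The log2 fold change was 0.28 with an SE of 0.10 (adjusted p = 0.0179, limma, Benjamini-Hochberg). The call was lost without GFP library B (adjusted p = 0.0678), without TEADi library B (0.0607), without TEADi library C (0.0959) and without GFP libraries A and B (0.0657), all by limma with Benjamini-Hochberg adjustment.

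MXD3 (chromosome 5, 176728462 to 176739758, minus strand), the antagonist associated with S phase and dividing cells, did not share the rise. It measured 8.32, 9.23 and 7.89 CPM in GFP against 6.74, 6.41 and 7.95 in TEADi, and the groups overlapped through TEADi library C. The log2 fold change was -0.24, with a 95% interval of -0.50 to 0.02 (limma, Benjamini-Hochberg adjusted p = 0.101). The interval lies below those of MXD1, MXD4, MXI1 and MNT, but the difference between these genes was not tested. The log2 fold change of MXD3 was -0.15 without GFP libraries A and B. MXD3 overlaps PRELID1 on the other strand, which fell from 270 ± 26.1 to 193 ± 12.2 CPM, and RAB24 on its own strand, which rose from 24.5 ± 0.549 to 29.2 ± 2.27, and whether its low values hold reads of either was not tested.

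**Figure D2:**
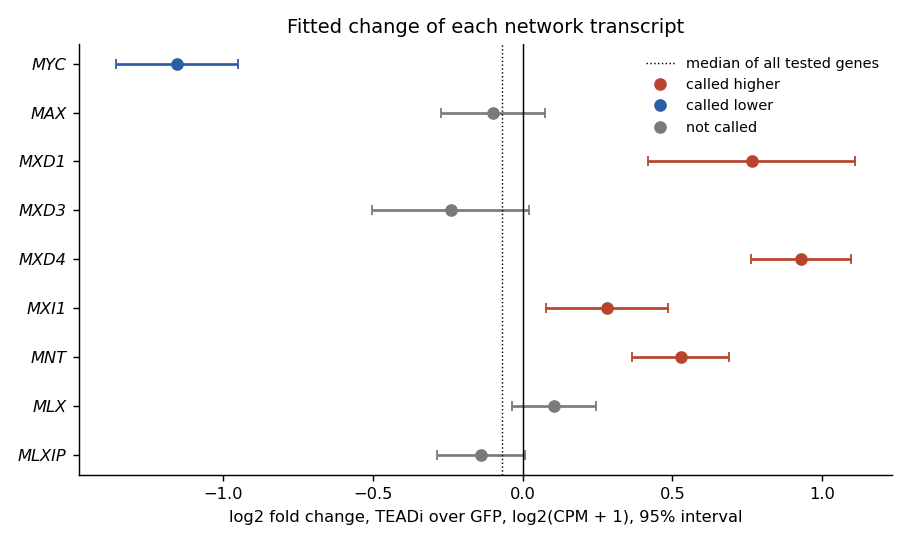
Fitted log2 fold change of each network gene, TEADi over GFP, on the log2(CPM + 1) scale (points) with 95% intervals from limma (bars). The dotted line is the median of all 13640 tested genes (-0.07). MYC lies at -1.15, MXD4 at 0.93, and the intervals of MAX, MXD3, MLX and MLXIP include 0.

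Neither gene of the MLX branch was called. MLX (chromosome 17, 40719086 to 40725257, plus strand) measured 99.5, 91.0 and 92.5 CPM in GFP against 97.1, 101 and 106 in TEADi. Its log2 fold change was 0.10, with a 95% interval of -0.04 to 0.25 (limma, Benjamini-Hochberg adjusted p = 0.189). It was 0.13 without GFP libraries A and B. MLX was called higher under each of 3 other scalings, with log2 fold changes of 0.17 to 0.21. It overlaps PSMC3IP on the other strand, which fell from 61.1 ± 1.43 to 49.2 ± 2.07 CPM. MLXIP (chromosome 12, 122516628 to 122631894, plus strand) measured 110, 98.3 and 109 CPM in GFP against 95.1, 91.4 and 101 in TEADi. GFP library B lay within the TEADi range. The log2 fold change was -0.14, with an interval of -0.29 to 0.01 (adjusted p = 0.0905, limma, Benjamini-Hochberg), and MLXIP was called lower only when GFP library B was left out (adjusted p = 0.0431, limma, Benjamini-Hochberg). The log2 fold change of MLXIP was -0.19 without GFP libraries A and B.

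Ratios within a library cannot be moved by any scaling of whole libraries, and they were described without a test. The log2 ratio of MYC to MAX CPM was -0.93, -0.90 and -0.59 in GFP and -2.09, -1.81 and -1.87 in TEADi. MYC relative to MAX was thus 2.17-fold lower with TEADi, with no overlap. The ratio of MYC to MXD4 went from -0.42 ± 0.24 to -2.58 ± 0.10 on the log2 scale, 4.47-fold lower. The ratio of MYC to MXD1 went from 2.09 ± 0.48 to 0.02 ± 0.18, 4.19-fold lower, and that to MNT from -0.21 ± 0.20 to -1.97 ± 0.15, 3.38-fold lower. Relative to MXI1 MYC was 2.85-fold lower and relative to MXD3, which itself was lower in mean, 1.92-fold lower. In each of the 6 ratios GFP and TEADi libraries did not overlap, but all 6 share MYC, whose own values did not overlap. The log2 ratio of MLXIP to MLX went from 0.16 ± 0.07 to -0.08 ± 0.06, 1.19-fold lower. The groups did not overlap in it, although neither gene was called by itself. The share of all gene pairs that separate in this way was not computed, and 65.8% of single tested genes did.

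**Figure D3:**
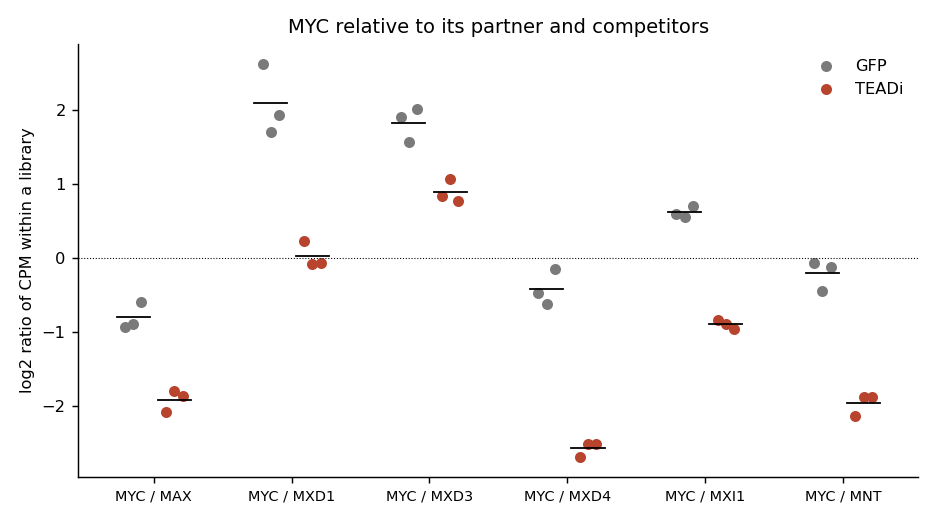
Log2 ratio of MYC CPM to that of MAX and of each antagonist within each library (points), with group means (lines). All 3 TEADi libraries lie under all 3 GFP libraries in every ratio, by 1.11 for MAX and 2.16 for MXD4 in the mean.

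Levels of different genes were set side by side per kilobase of the longest protein-coding transcript in the GENCODE 29 basic set, which need not be the transcript made in SCC9. On that scale MLX was highest in GFP (36.5 ± 1.75 CPM per kb), followed by MAX (16.7 ± 1.87), MYC (12.7 ± 1.07), MLXIP (12.5 ± 0.763), MXD4 (9.92 ± 1.01), MNT (6.97 ± 0.435), MXI1 (5.66 ± 0.300), MXD3 (3.74 ± 0.301) and MXD1 (1.30 ± 0.341). Only MYC and MLXIP overlapped among neighbours in that order. In TEADi MXD4 was second (19.0 ± 0.156 CPM per kb) and MYC seventh (5.48 ± 0.356), below MNT (10.1 ± 0.394) and MXI1 (6.96 ± 0.718). These places are uncertain, since transcript lengths in that set vary widely for several members. They run from 330 to 3155 bases for MAX, 345 to 2366 for MYC, 606 to 4996 for MNT and 805 to 8427 for MLXIP.

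The remaining relatives of the network were low or not called. MGA, a large MAX-binding protein with a T-box domain, stood at 58.6, 68.7 and 76.1 CPM in GFP and 70.4, 82.4 and 67.9 in TEADi and was not called (limma, Benjamini-Hochberg adjusted p = 0.279). MYCL and MLXIPL, the MondoA paralog ChREBP, were under the filter and were not tested. MYCL measured 0.238, 0.303 and 0.345 CPM in GFP and 0.431, 0.719 and 0.483 in TEADi. MLXIPL measured 0.119, 0.227 and 0.0690 CPM in GFP and 0.776, 0.719 and 0.724 in TEADi. The groups did not overlap in MYCL or MLXIPL, as in 65.8% of all tested genes, but both genes lay near the floor. In units of a library's smallest value, MYCL measured 4 to 5 in GFP and 5 to 10 in TEADi. MLXIPL measured 1 to 3 in GFP and 9 to 12 in TEADi. These 3 genes were singled out after their values were seen.

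Genes commonly activated by MYC were lower throughout. All 53 tested genes of a list of 55 nucleolar and growth genes fell (limma, Benjamini-Hochberg), where 35.3% of all tested genes fell. Their median log2 fold change was -0.74, against -0.07 over all tested genes, with a range of -1.34 to -0.28. Of the 53, 5 fell by at least 2-fold, as did 394 of all 13640 tested genes. The list was chosen with earlier results of these data known, most of its genes serve ribosome assembly, and MYC dependence in SCC9 was not measured. The 4 with the smallest p were SRM, spermidine synthase (126 ± 11.8 to 52.2 ± 1.41 CPM), the ribosome assembly factors BOP1 (128 ± 9.80 to 54.9 ± 4.25) and RRP12 (169 ± 2.31 to 88.3 ± 4.42), and LAS1L, which takes part in cutting the ribosomal RNA precursor (93.9 ± 1.87 to 49.1 ± 0.965). The next targets were named after their values were seen. Nucleolin (NCL) went from 1183 ± 63.2 to 659 ± 12.3 CPM and fibrillarin (FBL) from 133 ± 14.6 to 68.2 ± 1.86. Ornithine decarboxylase (ODC1), the first enzyme of polyamine synthesis, went from 225 ± 20.1 to 132 ± 3.67, and CAD, which starts pyrimidine synthesis, from 171 ± 17.9 to 124 ± 6.82. TERT, the catalytic subunit of telomerase, overlapped between groups, at 1.55, 4.25 and 5.999 CPM in GFP against 2.16, 2.16 and 1.39 in TEADi (3.93 ± 2.24 to 1.90 ± 0.444 CPM; limma, Benjamini-Hochberg adjusted p = 0.0387), and its adjusted p was above 0.05 in 10 of the 16 alternative settings that tested it.

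Partners of MYC and regulators of its stability split. Of 30 tested genes of 32, 14 fell (46.7%, against 35.3% of all tested genes) and 2 rose (6.67%, against 25.5%), with a median log2 fold change of -0.17. RUVBL1 (180 ± 16.1 to 95.6 ± 6.98 CPM) and RUVBL2 (243 ± 18.6 to 137 ± 10.3), ATPases of the chromatin complexes that MYC recruits, fell together, although RUVBL1 overlaps the stronger SEC61A1 on the other strand. AURKA, a mitotic kinase that can shield MYC family proteins from degradation, fell from 197 ± 9.11 to 120 ± 2.90, and KIAA1524 (CIP2A), which protects MYC from dephosphorylation, from 69.7 ± 5.10 to 42.0 ± 0.409. The members that rose were SIN3B, a co-repressor of MXD proteins (20.7 ± 1.38 to 25.5 ± 0.462 CPM), and the nucleosome remodelling subunit BPTF (119 ± 7.61 to 150 ± 16.0). FBXW7 and HUWE1, ubiquitin ligase components that act on MYC, and the co-activator TRRAP, all named after their values were seen, were not called, with log2 fold changes of 0.16, 0.06 and 0.01. The ubiquitin ligase component SKP2 and the phosphatase subunit PPP2R5A, also named after their values were seen, were called lower. Their log2 fold changes were -0.65 and -0.24. With other scalings 4 or 5 members of this list were called higher.

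Genes that MYC is known to repress, many through the zinc finger protein MIZ1, were mixed. Of 12 tested of 17 listed, 4 rose, 2 fell and 6 passed in neither direction. The 33.3% that rose lie near the 25.5% of all tested genes, and 16.7% fell against 35.3%. With 12 genes these shares do not set the list apart. The median log2 fold change was 0.11. NDRG1, a stress and differentiation gene, rose from 46.1 ± 1.10 to 142 ± 9.45 CPM, and the CDK inhibitors CDKN1A and CDKN1B had log2 fold changes of 1.21 and 0.52. VAMP4, a vesicle fusion protein, rose as well (12.9 ± 0.871 to 16.5 ± 1.41), a call lost without TEADi library C (adjusted p = 0.0638, limma, Benjamini-Hochberg) and without GFP libraries A and B (0.154). The stress gene GADD45A fell from 54.4 ± 1.90 to 22.8 ± 2.35 CPM and the transcription factor KLF6 from 160 ± 2.74 to 109 ± 4.38, against the direction of the list. CDKN2B, a well-known target of this kind named after its values were seen, did not reach the filter.

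Among 7 tested of 11 listed targets of MondoA and ChREBP, 3 rose and 3 fell (42.9% each), against 25.5% and 35.3% of all tested genes. With 7 genes these shares do not set the list apart. The median log2 fold change was -0.16. TXNIP and ARRDC4, arrestin-like proteins that curb glucose uptake and the most direct MondoA targets, both rose, from 166 ± 5.80 to 245 ± 4.51 CPM and from 6.11 ± 1.04 to 10.0 ± 0.882 (limma, Benjamini-Hochberg adjusted p = 7.57e-07 and 4.70e-04). In TXNIP the 3 GFP libraries stood at 164, 172 and 161 CPM and the 3 TEADi libraries at 240, 248 and 248. The lipid synthesis genes FASN (378 ± 24.1 to 236 ± 20.9 CPM), ACLY (612 ± 15.7 to 491 ± 13.8) and ACACA (31.4 ± 3.31 to 24.8 ± 0.682) fell, while the desaturase SCD rose from 82.8 ± 11.6 to 103 ± 4.48, a call lost without GFP libraries A and B (adjusted p = 0.0653, limma, Benjamini-Hochberg).

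**Figure D4:**
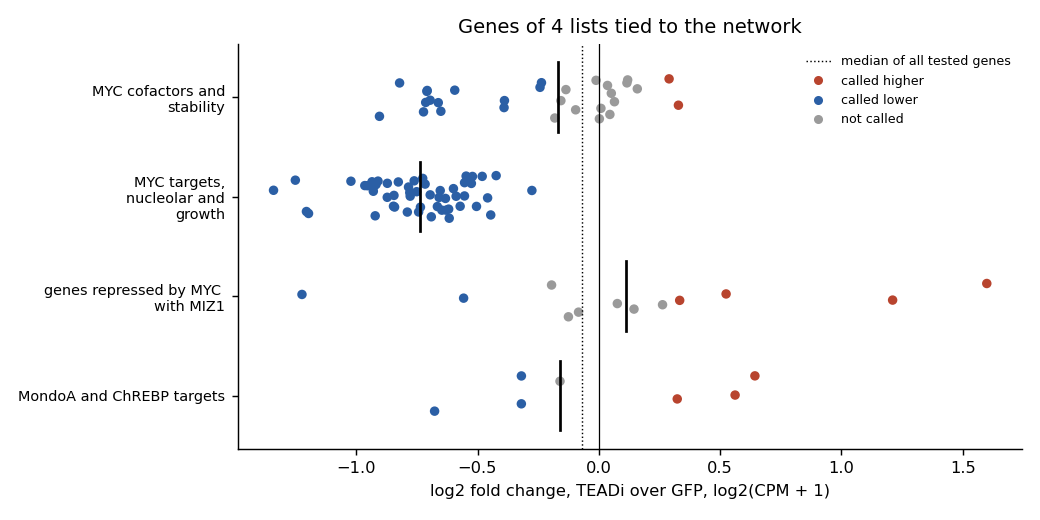
Fitted log2 fold change, TEADi over GFP, of each tested gene (points, jittered vertically) in the lists of MYC partners, MYC-activated, MYC-repressed and MondoA target genes, with list medians (black bars) and the median of all tested genes (dotted). The 53 MYC-activated genes lie between -1.34 and -0.28, while the repressed genes and MondoA targets lie on both sides of 0.

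The genes whose values over the 6 libraries were most like those of MYC were AKAP2, a kinase anchor, IQCB1, a ciliary protein, and the RNA helicase DDX21 of the nucleolus, with Pearson r of 0.9996, 0.9994 and 0.9993 on log2(CPM + 1). Those most like MXD4 were TSPAN31, RASA3, a GTPase activator for RAS, and FAM20C, a secretory pathway kinase, with r of 0.9996, 0.9995 and 0.9987. The points share 2 treatment groups, so any gene that separates them scores high. Of 9248 genes with a mean of at least 10 CPM, 2077 had an r of at least 0.95 with MYC and 855 with MXD4. TSPAN31 overlaps CDK4 on the other strand, which fell from 264 ± 36.9 to 156 ± 2.84 CPM.

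In the authors' deposited table the calls of all 9 members at an adjusted p (FDR step up) under 0.05 were the same as those above, 4 higher and 1 lower. That table gave MYC a TEADi to GFP ratio of 0.430 and MXD4 one of 1.92. An exact permutation test of 3 against 3 libraries cannot give a two-sided p under 0.10, and each of the 5 called members reached that value. Reaching it is the same as no overlap between the groups, which held in 65.8% of all tested genes.

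**Figure D5:**
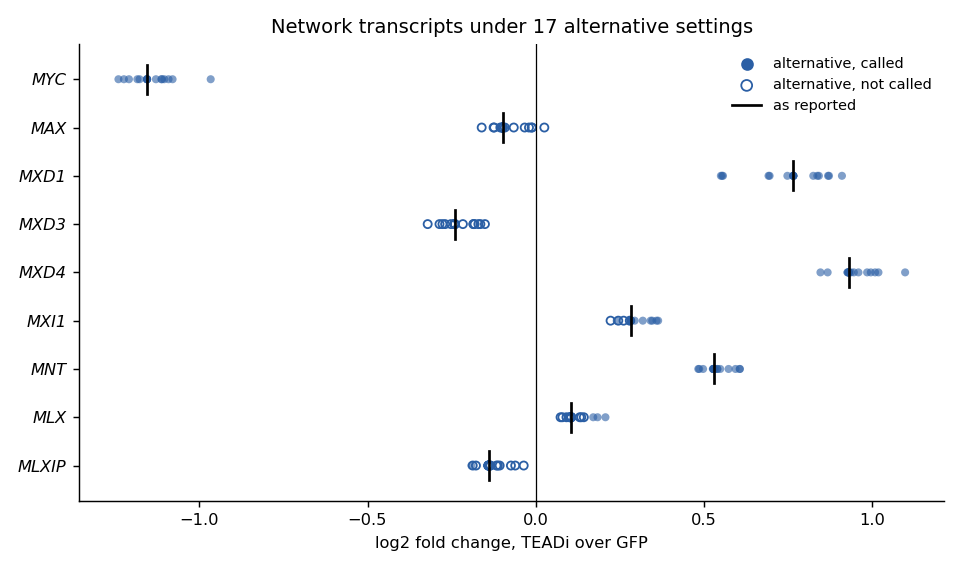
Log2 fold change of each network gene as reported (black bar) and under 17 alternative settings (circles, filled where called at an adjusted p under 0.05). MYC, MXD4, MXD1 and MNT are called throughout, MXI1 loses its call in 4 settings, MLX gains one in 3 and MLXIP in 1.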

How the data were processed

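Messenger RNA of 6 libraries (3 GFP, 3 TEADi) was prepared from poly(A) RNA with a TruSeq mRNA kit, per the labels' protocols. Per the submitters' processing notes, Trimmomatic 0.36, STAR 2.5.1 and Partek 8.0.19.0819 were used with hg19, without the role of each. The quantifier, annotation release and use of strand are not given in the sources used here. The deposited values are CPM that the authors scaled with TMM factors, as taken from the table's own label and column totals. The ratio and p-value of each gene in the second deposited table are the authors' own, from a test the table does not name.

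Of 19921 entries, the 905 entries of 421 repeated symbols were merged: values above the floor (the smallest value of a library) were summed, and 1 floor was added back. Of low values 84.3% to 85.5% came within 0.1 of a whole number of floors, which does not allow reads to be recovered, so no count test was made. Genes at 1 CPM or above in 3 or more libraries were fitted on log2(CPM + 1) with limma 3.58.1 (lmFit, eBayes with trend; R 4.3.3), with two-sided p-values adjusted by Benjamini-Hochberg over the 13640 tested genes. The code was tested on simulated data. Other work used Python 3.11.15, pandas 2.3.3, scipy 1.17.1 and matplotlib 3.10.9.

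Members and gene lists were chosen with earlier results of these data known. Named genes were all members, up to 4 called genes of each list with the smallest p in each direction, TXNIP, ARRDC4 and the 3 genes most correlated with MYC and with MXD4. The text says where others were named after their values were seen, and neighbours were named because they overlap a member. Coordinates are those of the authors' table with the stop minus 1. Library letters recur in both groups, but deviations from the group mean correlated by 0.08, -0.06 and -0.02 between libraries of the same letter, so letters were not used as pairs. Alternatives changed the pseudocount, filter, scaling, variance trend, merging, block and libraries used.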

Additional observations from a re-analysis of the deposited data

How the results depend on the processing

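MYC, MXD4, MXD1 and MNT kept their direction and call in all 17 alternatives, with log2 fold changes of -1.24 to -0.97 for MYC, 0.85 to 1.10 for MXD4, 0.55 to 0.91 for MXD1 and 0.48 to 0.61 for MNT. MXI1 lost its call in 4, with 0.28 without GFP libraries A and B and a range of 0.22 to 0.36 when single libraries were left out. MLX was called at 0.18 (equal totals), 0.17 (median-ratio factors) and 0.21 (quantile normalization). MLXIP ranged from -0.19 to -0.11 without single libraries, and members called lower from 1 to 2. MAX reversed to 0.025 and MGA to -0.053 without GFP libraries A and B, neither called. MYC partners called higher numbered 4, 4 and 5 under these 3 scalings in the same order, against 2. The cause was not tested. Activated MYC targets called lower numbered 52 or 53 in every alternative. With the library letter as a replicate block, 3489 genes were called higher and 4743 lower, against 3482 and 4817, and no member changed its call. Of all calls 42.0% were higher as reported, 50.3%, 49.0% and 46.0% under the 3 scalings. TERT was not tested under the filter of 5 CPM. Depth is known only in units of a library's smallest value, in which MXD3 and MXD1, the lowest members, measured 78 to 235.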
